A study of Homo sapiens with 32 samples.

Results

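Transcripts of 7 chaperone genes were followed across all 32 libraries: HSPA8, HSP90AA1 and HSP90AB1 of the cytosol, HSPA5 and HSP90B1 of the endoplasmic reticulum (ER), and HSPD1 and HSPE1 of the mitochondrion. They were chosen by name for these protein families and not by a rule on their values, but with earlier results of these data known. They are 7 of 19360 protein-coding genes in the annotation. Each gene was read at the exonic positions of its representative transcript on its own strand, 17421 positions of GRCh38 in all, so that small nucleolar RNAs encoded in introns were left out. The RNA came from Hep3B, a human hepatocellular carcinoma cell line, in an experiment that mapped N4-acetylcytidine (ac4C) at single bases. NaCNBH3 reduces ac4C so that reverse transcription reads part of the modified cytidines as T, and a mock fraction of the same RNA served as the control. The files list the bases read at each position that reached 30 reads, and a position below that is absent.

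All cells, controls included, received 100 nM dTAGV1 for 24 h, a degrader that recruits a ubiquitin ligase to proteins carrying an FKBP degron tag. Wildtype cells were parental Hep3B cells without the tag. FKBP cells carried the tag on endogenous NAT10, the RNA cytidine acetyltransferase. The other 6 genotypes were FKBP cells that had been transduced and selected with blasticidin. NAT10(-) cells received a control plasmid encoding YFP, and NAT10-WT cells an unmutated NAT10. K290A and E389L cells received NAT10 with a substitution in the RNA helicase domain, and H537A and G641E cells NAT10 with a substitution in the acetyltransferase (GNAT) domain. Transduction and selection are described for the 6 transduced genotypes only, so that NAT10-WT differs from Wildtype and FKBP in these steps as well. Each genotype gave 2 replicates and each RNA sample 2 fractions, hence 16 RNA samples. P-values measure the spread between these samples, whatever its source.

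Chaperones bind unfolded polypeptides and help them reach or keep their native form. HSP70 proteins cycle between ATP and ADP states to hold and release short hydrophobic stretches, HSP90 proteins act later on near-native clients such as kinases and steroid receptors, and the mitochondrial chaperonin encloses a substrate in a barrel closed by a lid. Cytosolic stress raises many of these transcripts through the heat shock factor HSF1, whereas misfolded protein in the ER raises HSPA5 and HSP90B1 through the unfolded protein response. Liver cells carry a heavy load of secretory protein. HSP90AA1 mRNA has been described as a substrate of NAT10 in hepatocellular carcinoma, and the ac4C sites placed most firmly lie at the central C of CCG triplets.

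The CCG cytosines are therefore the places in these messages to look at first. For each gene the CCG cytosine with the most NaCNBH3 reads is shown, as RNA-sense DNA letters of GRCh38 with the CCG in capitals. The middle C of the capitals is the cytosine that was counted. The HSPA8 window lies at chr11:123059793-123059813 on the minus strand in exon 5 (coding) and that of HSP90AA1 at chr14:102086337-102086357 on the minus strand in exon 2 (coding). That of HSP90AB1 lies at chr6:44247105-44247125 on the plus strand, in the 5′ UTR of exon 1. The HSPA5 window at chr9:125241328-125241343 on the minus strand begins at the first base of the transcript, in the 5′ UTR. HSP90B1 is shown at chr12:103943768-103943788 on the plus strand in exon 14 (coding). The last 2 windows are HSPD1 at chr2:197498801-197498821 on the minus strand and HSPE1 at chr2:197501103-197501123 on the plus strand, each in exon 2 (coding).
HSPA8: aagacgcctCCGtactgcttg
HSP90AA1: caagaccaaCCGatggaggag
HSP90AB1: cgagtcactCCGgcgcagtgt
HSPA5: gacgCCGgccaagaca
HSP90B1: acagaatctCCGtgtgctttg
HSPD1: cagatgagaCCGgtgtccagg
HSPE1: actctttgaCCGagtattggt

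Libraries differed widely in how many exonic bases of coding genes they listed. They listed 400119 to 3797803 positions and 1210 to 1732 megabases of base calls, of which 17.6 to 278 megabases (median 47.9) lay in exons of coding genes; the RNA had been partly depleted of ribosomal RNA. Both K290A replicate 1 libraries listed the most, at 277 and 278 megabases. The highest depth at any position was 20029 to 20049 reads in all 32 libraries, and positions under 30 reads are absent. These amounts therefore cannot tell the mRNA content of a library from its sequencing depth. The liver markers ALB, APOA1, APOA2, APOB, SERPINA1 and TF had covered positions in all 32 libraries, AFP and TTR in 25 and FGB in 12. Of 8 markers of leukocytes, fibroblasts and endothelium, LYZ was covered in 26 libraries and the other 7 in 0. NAT10 itself had covered positions in every NAT10-WT, K290A, H537A and G641E library and none in Wildtype, FKBP, NAT10(-) or E389L. The libraries labelled E389L therefore showed no added NAT10 transcript at 30 reads, while carrying a label that names one.

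HSPA8 and HSP90AB1 had covered positions in every library, at the lowest 40.2% and 51.8% of their exonic positions (G641E replicate 2, mock), and each of the other 5 messages had none in at least 1 library. On average over the libraries, 90.5% of HSPA8 and 89.5% of HSP90AB1 exonic positions were covered. The means were 54.9% for HSPD1, 54.7% for HSPE1, 40.6% for HSP90AA1, 34.2% for HSPA5 and 27.4% for HSP90B1. No position was covered in 10 libraries for HSP90B1, 3 for HSPD1, 2 for HSP90AA1 and 1 each for HSPA5 and HSPE1. With ACTB, a cytoskeletal actin, as the yardstick, the level of a gene was its mean depth per exonic position as a percent of that of ACTB, a scale that takes length into account. ACTB itself had a mean depth of 199 to 1922 reads (median 481). Absent positions were counted as 0 reads, which gives a lower bound, or as 29, which gives an upper bound. In bulk RNA such a level cannot tell fewer expressing cells from less RNA per cell.

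Over the 32 libraries the lower bound for HSP90AB1 ran from 8.71% to 31.1% of the ACTB depth (median 18.8%). HSPA8 ran from 6.66% to 24.3% with a median of 14.5%. These were the highest medians of the 7. HSPE1 had a median of 6.61% and a highest value of 21.9%, HSPD1 5.32% and 22.5%, HSP90AA1 3.37% and 24.6%, HSPA5 3.11% and 7.37%, and HSP90B1 0.589% and 8.28%. The lowest value of each of these 5 genes was 0. HSP90AA1 and HSPD1 therefore spanned from no covered position to the level of the best-covered messages, whereas the lower bounds of HSPA5 and HSP90B1 stayed below 9%, with upper bounds of up to 15.4% and 14.6%. The plot of depth by RNA sample shows this gene by gene.

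**Figure D1:**
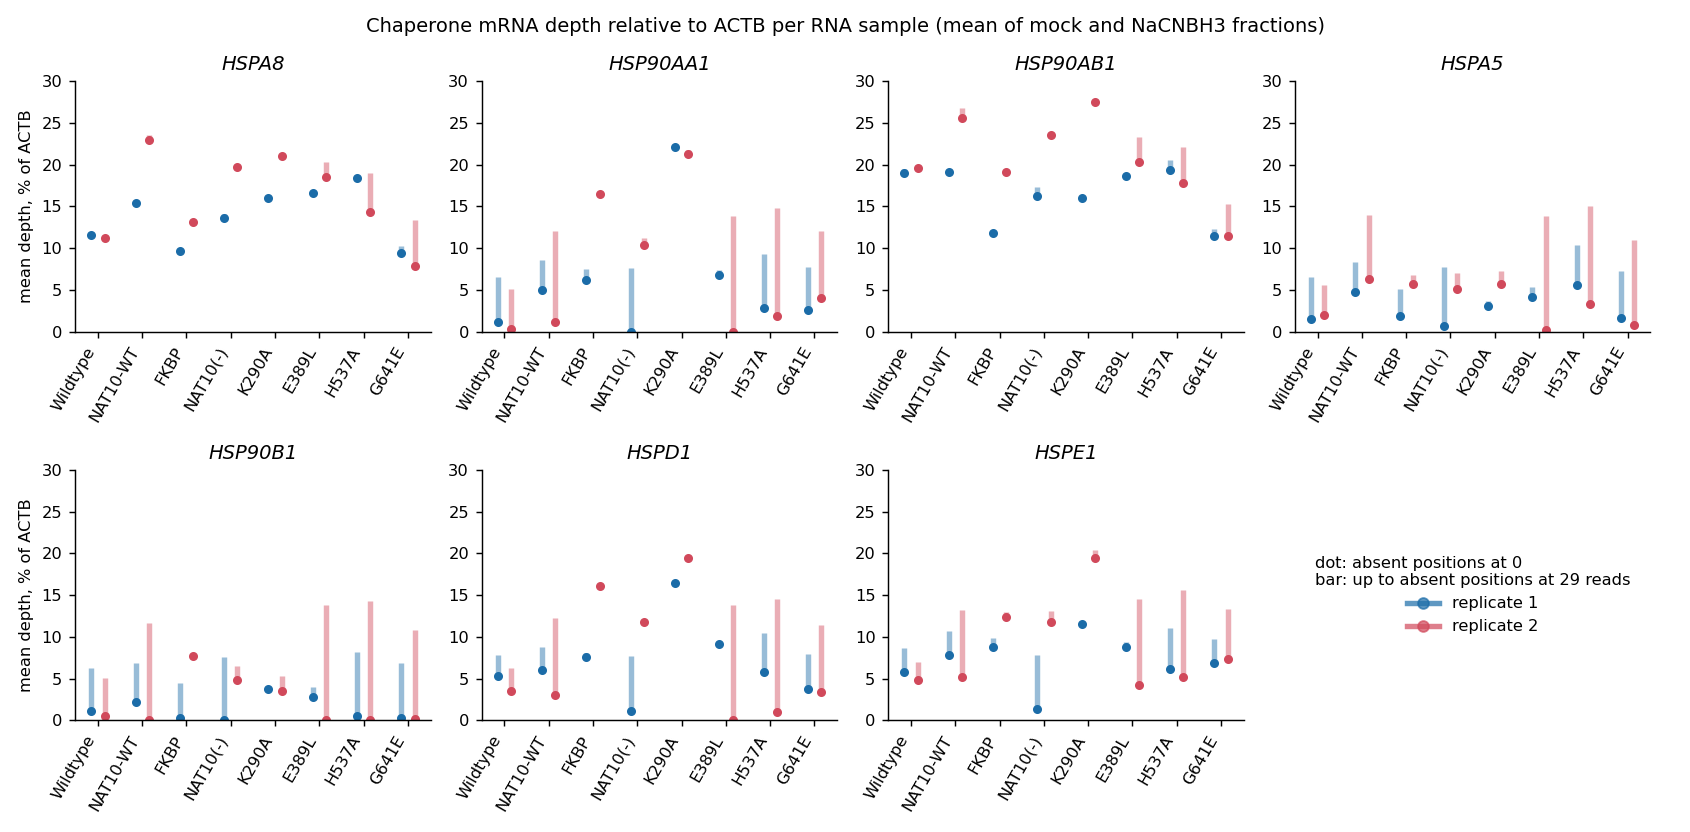
Mean exonic depth of each chaperone mRNA relative to ACTB (y axis, percent) in the 16 RNA samples, grouped by genotype on the x axis, with a dot at the lower bound (absent positions as 0) and a bar up to the upper bound (absent positions as 29 reads). HSPA8 and HSP90AB1 have short bars in most samples, and HSP90AA1 and HSPD1 stand highest in both K290A samples.

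HSPA8 encodes the constitutive HSP70 of the cytosol, which folds new polypeptides and uncoats clathrin vesicles. Its level in replicates 1 and 2 was 11.5% and 11.2% of ACTB in Wildtype, 15.4% and 22.99% in NAT10-WT, 9.69% and 13.1% in FKBP and 13.7% and 19.7% in NAT10(-). The mutants gave 15.99% and 21.1% in K290A, 16.6% and 18.5% in E389L, 18.4% and 14.3% in H537A, and 9.37% and 7.87% in G641E. Wildtype, FKBP and G641E lay below both NAT10-WT samples, also when the upper bounds (11.96%, 13.3% and 13.4% at most) were set against the lower bound of NAT10-WT. The same non-overlap in the downward direction held for 12.7% of 981 genes in Wildtype, 10.5% in FKBP and 6.42% in G641E. The remaining genotypes overlapped NAT10-WT.

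Tested by limma over 219 genes, HSPA8 differed from NAT10-WT by -1.103 in G641E (log2, SE 0.28, adjusted p = 0.183), -0.73 in FKBP (SE 0.28, adjusted p = 0.133) and -0.72 in Wildtype (SE 0.28, adjusted p = 0.0962). None passed the threshold, and with absent positions at 29 reads the G641E value was -0.70 (SE 0.35, limma over 981 genes). Relative to the median gene in place of ACTB, the Wildtype difference was -0.26 (adjusted p = 0.546, limma). Relative to genes of like GC content, a scale that does not use ACTB either, it was -0.09 (SE 0.26, adjusted p = 0.891 by limma). The G641E difference had an adjusted p of 0.0361 without K290A replicate 1 and 0.0357 without K290A replicate 2, both by limma at the same value of -1.103. From the NaCNBH3 libraries alone the Wildtype difference was -0.85 (adjusted p = 0.0489, limma).

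HSP90AB1 encodes the constitutive cytosolic HSP90. It stood at 18.95% and 19.6% of ACTB in Wildtype, 19.1% and 25.6% in NAT10-WT, 11.8% and 19.1% in FKBP and 16.3% and 23.5% in NAT10(-). Values in the mutants were 16.03% and 27.5% in K290A, 18.6% and 20.3% in E389L, 19.3% and 17.8% in H537A, and 11.5% and 11.5% in G641E. Only G641E lay wholly below NAT10-WT, with an upper bound of 15.3% at most. The limma difference there was -0.94 (log2, SE 0.30, adjusted p = 0.269), and it was -0.56 in FKBP (SE 0.30, adjusted p = 0.277).

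Whether both constitutive messages were higher in the helicase-domain mutants, the libraries labelled E389L among them, than in the GNAT-domain mutants depended on the test. HSPA8 differed by 0.58 (log2, SE 0.20, adjusted p = 0.0634) and HSP90AB1 by 0.46 (SE 0.21, adjusted p = 0.146) in limma relative to ACTB. With the replicate number as a block the HSPA8 difference passed limma (0.58, SE 0.18, adjusted p = 0.0428), and that of HSP90AB1 did not (0.46, SE 0.17, adjusted p = 0.0695). Relative to the median gene the values were 0.72 (adjusted p = 0.00555) and 0.60 (adjusted p = 0.00542) by limma. The edgeR quasi-likelihood test with TMM gave 0.75 (adjusted p = 0.0109) and 0.61 (adjusted p = 0.0130), but it takes base calls of one read at neighbouring positions as separate counts. G641E held the lowest mean of both genes by the lower bounds, and the H537A values overlapped those of K290A and E389L. HSPA8 and HSP90AB1 also varied together across the 16 RNA samples, with a Pearson r of 0.867 (Spearman rho 0.785, and r 0.773 without the 2 samples farthest from the median). Among 218 genes ranked for likeness to HSPA8, HSP90AB1 came first, followed by EIF4A1 (r 0.766), a translation initiation helicase, and CCT3 (r 0.753), a chaperonin subunit. These correlations are descriptive, since all points share the ACTB denominator and the depth of their libraries.

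HSP90AA1 encodes the stress-inducible HSP90 of the cytosol, and its genotype means (lower bounds) spread most widely of the 7. It stood at 22.1% and 21.3% of ACTB in K290A, 6.14% and 16.5% in FKBP, 0.0263% and 10.3% in NAT10(-), and 6.76% and 0% in E389L. In the other genotypes it gave 4.99% and 1.18% in NAT10-WT, 1.14% and 0.284% in Wildtype, 2.88% and 1.92% in H537A, and 2.58% and 4.05% in G641E. Many of these are lower bounds with a wide gap above them: the upper bound was 8.59% and 12.04% in NAT10-WT and 13.9% in E389L replicate 2, where no position was listed. K290A (21.3% to 22.2% between its bounds) lay above every bound of NAT10-WT. That was so for 0.917% of 981 genes, 9 in number, of which HSP90AA1 and HSPD1 were 2. Wildtype, with an upper bound of 6.52% at most, overlapped NAT10-WT.

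The limma difference between K290A and NAT10-WT was 2.94 for HSP90AA1 (log2, SE 1.32, adjusted p = 0.122 over 981 genes), and 1.07 (SE 0.43, adjusted p = 0.0969) with absent positions set to 29 reads. The first value counts the missing positions of NAT10-WT as 0 reads, and neither passed the threshold. The median of the 981 genes moved by 1.097 in the first fit and by -1.14 in the second, so that HSP90AA1 lay above it in both. With absent positions as 0, replicates of one genotype differed by a median of 1.46 (log2) for this gene and by up to 5.19 in NAT10(-). Between the 2 fractions of one RNA the median was 0.24. In NAT10(-) replicate 1 the upper bounds were 7.03% (mock) and 8.14% (NaCNBH3) of ACTB, so that the gap between its replicates may be much smaller. GC content moved with the K290A result. In K290A the log2 depth of genes relative to ACTB fell by 0.58 in replicate 1 and by 0.38 in replicate 2 for each 10 percentage points of GC content, over 219 genes. HSP90AA1 has 41.6% GC and HSPD1 41.7%, against 55.2% for ACTB. The part of GC content and of library depth in the result was not tested for HSP90AA1. For HSPD1 the difference relative to genes of like GC content was 1.89 (log2, SE 0.96, adjusted p = 0.138, limma). That scale does not use ACTB, and relative to the median gene, without a GC term, the HSPD1 value was 2.48 (adjusted p = 0.133, limma).

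The ratio of the paralogs, HSP90AA1 over HSP90AB1, needs no ACTB. HSP90AB1 has 47.2% GC against 41.6% for HSP90AA1, and the part of GC content in the ratio was not tested. Between its bounds the ratio was 1.37 to 1.39 in the K290A replicate 1 libraries and 0.745 to 0.803 in those of replicate 2. It was 0.482 to 0.647 in FKBP replicate 1 and 0.820 to 0.925 in FKBP replicate 2. In Wildtype it lay between 0.0121 and 0.351, and in NAT10-WT between 0.0395 and 0.510. The ratio lay above 1 throughout its bounds in the K290A replicate 1 libraries only, and these bounds cover absent positions alone. The ratios of both K290A and FKBP replicate 2 lay above all bounds in Wildtype and NAT10-WT. For G641E replicate 2 the mock library allowed 0.216 to 1.53, so that the order of the paralogs is unknown in that library.

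**Figure D2:**
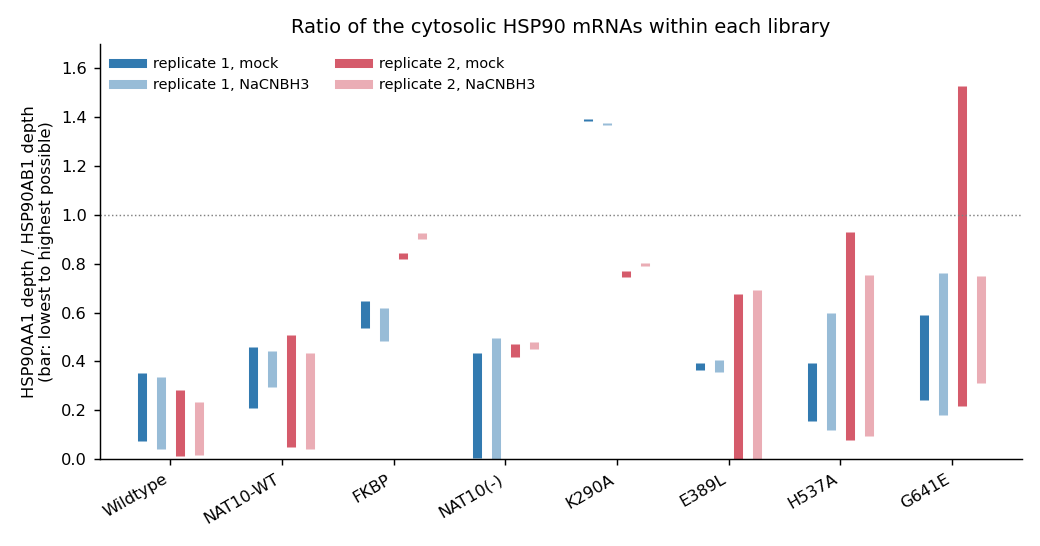
Ratio of HSP90AA1 to HSP90AB1 mean exonic depth (y axis, no unit) in each of the 32 libraries, grouped by genotype on the x axis, with each bar running from the lowest to the highest ratio that absent positions allow and a dotted line at 1. K290A replicate 1 stands at 1.37 to 1.39, and the bars of shallow libraries are wide.

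HSPA5 encodes BiP, the HSP70 of the ER lumen, which also keeps the sensors of the unfolded protein response inactive. The level was 1.57% and 1.96% of ACTB in Wildtype, 4.72% and 6.30% in NAT10-WT, 1.88% and 5.66% in FKBP and 0.663% and 5.12% in NAT10(-). The mutants gave 3.11% and 5.71% in K290A, 4.11% and 0.185% in E389L, 5.54% and 3.35% in H537A, and 1.62% and 0.780% in G641E. The lower bounds of Wildtype and G641E stayed under 2% in both replicates, but the bounds overlapped those of NAT10-WT in every genotype. The limma differences were -2.01 in G641E (log2, SE 0.90, adjusted p = 0.589) and -1.55 in Wildtype (SE 0.90, adjusted p = 0.592). They rest on absent positions counted as 0, and at 29 reads they were -0.28 (SE 0.53) and -0.82 (SE 0.53, adjusted p = 0.460, limma). The 3 genes most like HSPA5 in level over the 16 RNA samples, of 980 ranked, were HNRNPA3 (Pearson r 0.863, Spearman rho 0.774), RRBP1 (r 0.826, rho 0.771) and NUCKS1 (r 0.816, rho 0.788). Without the 2 samples farthest from the median, r was 0.798, 0.785 and 0.650.

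HSP90B1 encodes GRP94, the HSP90 of the ER lumen, and was the least covered. It reached 7.69% of ACTB in FKBP replicate 2 and 4.81% in NAT10(-) replicate 2, but 0.299% and 0% in their replicate 1. K290A gave 3.72% and 3.48%, E389L 2.81% and 0%, NAT10-WT 2.20% and 0%, and Wildtype 1.101% and 0.589%. H537A gave 0.497% and 0%, and G641E 0.351% and 0.181%. These are lower bounds, and the upper bounds reached 5.34% in K290A and 6.27% to 14.3% in the other genotypes, so that the order of the genotypes is unknown. The limma difference of K290A from NAT10-WT was 1.93 (log2, SE 1.41, adjusted p = 0.312), and with absent positions at 29 reads it turned to -1.0001 (SE 0.58, adjusted p = 0.130). With absent positions as 0, replicates of one genotype differed by a median of 1.56 (log2).

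HSPD1 encodes the mitochondrial chaperonin HSP60 and HSPE1 its lid, HSP10. The genes lie head to head on chromosome 2, with starts at 197499840 and 197500379, 539 bases apart. HSPD1 stood at 16.5% and 19.5% of ACTB in K290A, 7.54% and 16.1% in FKBP, 1.09% and 11.7% in NAT10(-) and 9.10% and 0% in E389L. It stood at 6.01% and 3.01% in NAT10-WT, 5.32% and 3.50% in Wildtype, 5.78% and 1.06% in H537A and 3.73% and 3.42% in G641E. K290A again lay above the upper bounds of NAT10-WT (8.81% and 12.2%), and its limma difference was 2.00 (log2, SE 1.24, adjusted p = 0.279), or 0.76 (SE 0.43, adjusted p = 0.124, 981 genes) with absent positions at 29 reads.

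The level of HSPE1 was 11.5% and 19.4% in K290A, 8.74% and 12.3% in FKBP, 1.32% and 11.8% in NAT10(-) and 8.74% and 4.202% in E389L. It was 7.83% and 5.26% in NAT10-WT, 5.76% and 4.80% in Wildtype, 6.19% and 5.21% in H537A and 6.87% and 7.30% in G641E. By the lower bounds K290A and FKBP had the highest means, as for its partner, but the FKBP upper bound of 12.9% lay below those of H537A (15.6%) and E389L (14.5%), and the K290A samples overlapped the upper bounds of NAT10-WT (10.7% and 13.2%). The K290A difference was 1.18 (log2, SE 0.82, adjusted p = 0.331, limma), or 0.35 (SE 0.41, adjusted p = 0.437) with absent positions at 29 reads, and its adjusted p was 0.0400 without NAT10(-) replicate 1. NAT10(-) replicate 1 held the lowest value of the gene, and without NAT10(-) replicate 2 the NAT10(-) difference was -2.88 (adjusted p = 0.0211, limma) in place of -1.02.

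Across the 8 genotype comparisons, limma relative to ACTB called 0 of 32 tests on HSPA8, HSP90AB1, HSPD1 and HSPE1, the 4 members with at least 50% of positions covered on average. Unadjusted p lay under 0.05 in 6 of the 32, and both edgeR fits called 2, those of the helicase against GNAT comparison. The share of all 219 genes called was 10.0% in Wildtype, 5.48% in FKBP, 31.1% in K290A, 16.4% for helicase against GNAT mutants and 0.0% in NAT10(-), E389L, H537A and G641E. Calls over the 219 genes were mostly downward relative to ACTB, at 0 higher and 22 lower in Wildtype, 0 and 12 in FKBP, 2 and 66 in K290A and 4 and 32 for helicase against GNAT mutants. With the replicate number as a block they were 1 and 52 in Wildtype and 2 and 19 in FKBP. Relative to the median gene the splits were 5 and 2, 3 and 5, 21 and 41, and 13 and 23. Over 981 genes the split was 86 higher and 65 lower in K290A and 67 and 31 for helicase against GNAT mutants with absent positions as 0, and 0 and 83, and 0 and 31, with absent positions at 29 reads. The median of the 219 genes moved by -0.48, -0.19, -0.33 and -0.18 (log2) against ACTB in these comparisons. HSPD1 and HSPE1 in K290A were higher than that median, but the median of 981 genes was 1.097 there, near the 1.18 of HSPE1. HSPA8 and HSP90AB1 there lay near 0 (-0.04 and -0.09), or relative to the median gene at 0.44 (adjusted p = 0.120) and 0.40 (adjusted p = 0.0953), uncalled by limma in both scalings.

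A list of 48 other folding genes was also drawn up with earlier results of these data known. Of these, 6 passed the coverage filter, 3 of 22 in the cytosol, 3 of 20 in the ER and 0 of 6 in the mitochondrion. HSPB1, a small heat shock protein, was higher in K290A (21.3% and 28.3% of ACTB) than in NAT10-WT (14.03% and 9.13%), a limma difference of 1.097 (log2, SE 0.32, adjusted p = 0.0168). CCT3 was higher in the helicase-domain mutants, at 15.2% to 26.01% of ACTB against 10.5% to 14.7% in H537A and G641E (0.64, SE 0.20, adjusted p = 0.0463, limma). CALR, a lectin chaperone of the ER, was lower there, at 10.2% to 16.7% against 16.9% to 24.1% (-0.63, SE 0.19, adjusted p = 0.0405, limma). For the 6 genes the median difference was 0.21 in K290A and -0.23 for helicase against GNAT mutants, beside -0.33 and -0.18 over all genes. In the other 6 comparisons none of the 6 genes was called.

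Median coverage was higher in the 5′ UTR than in the 3′ UTR in 6 of the 7 messages, and in HSP90B1 it was 0% in both, against 10.95% in its coding sequence. The 5′ UTR of HSP90AB1 was fully covered in all 32 libraries, and the median library covered 100% of the 5′ UTR of HSPA8, HSP90AA1, HSPD1 and HSPE1. In the 3′ UTR the median was 63.5% for HSPA8, 44.97% for HSP90AB1, 18.6% for HSPD1 and 7.49% for HSPA5, and 0% for HSP90AA1, HSP90B1 and HSPE1. Exon 1 of HSP90AB1 had a mean depth of 291 reads and its last exon 37.7, and exon 1 of ACTB 1171 against 460 in its last. HSPA5 stood out at its 3′ end: the last 1410 of its 3921 bases, beyond position 125236263 of chromosome 9, were uncovered in every library. The uncovered stretch was 312 bases in HSP90AA1, 77 in HSPE1, 68 in HSP90B1 and 16 or fewer in the other 3. The HSPA5 exonic length includes that stretch, which lowers its depth per position in every sample.

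**Figure D3:**
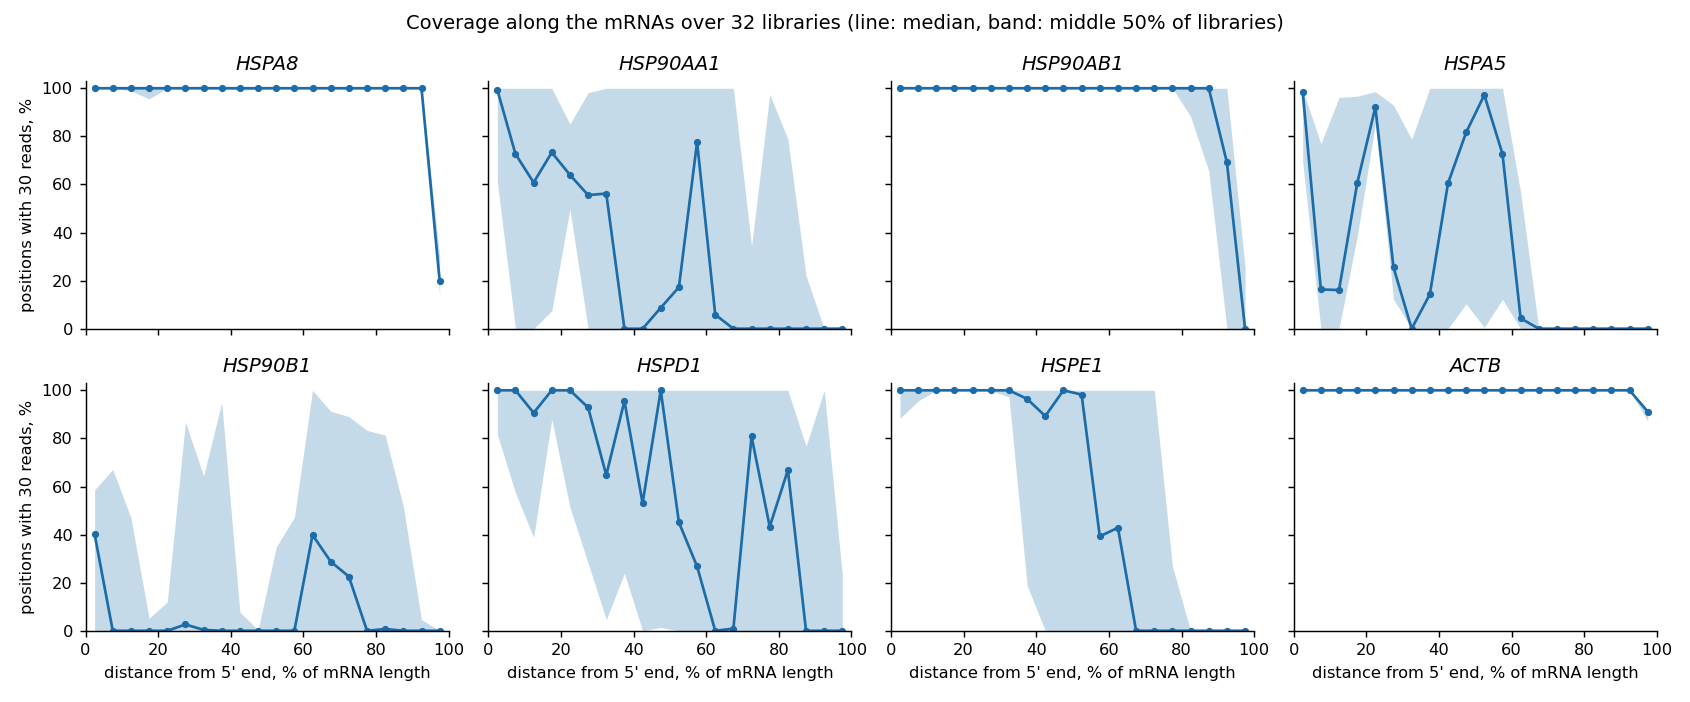
Coverage along each chaperone mRNA from the 5′ end (left) to the 3′ end (right) of the spliced transcript, in 20 bins of its length (x axis, percent), with the share of positions that reached 30 reads on the y axis, the median of 32 libraries as the line and their middle 50% as the band. HSPA8 and HSP90AB1 are covered almost throughout, and the last 1410 bases of HSPA5 are empty in all 32 libraries.

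Processed copies of these genes were listed at low depth. Base calls listed at annotated processed pseudogenes came to at most 0.241% of those at the parent gene for HSPA8, 0.853% for HSPA5, 2.25% for HSP90AA1, 2.49% for HSP90AB1, 6.31% for HSPD1 and 9.62% for HSPE1, and to 0 for HSP90B1. Reads of the copies that aligned to the parent gene are not in these shares. The 2 fractions of one RNA gave like depths: NaCNBH3 minus mock was 0.12 for HSPA8 (log2, adjusted p = 0.161), 0.11 for HSP90AB1 (adjusted p = 0.296), 0.31 for HSPD1 (adjusted p = 0.400) and 0.01 for HSPE1 (adjusted p = 0.979) by limma over 16 pairs. None of the 4 was called, as 0.0% of all 219 genes were, and 1 of the 4 and 41 of the 219 had an unadjusted p under 0.05.

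In the promoter sequences of RefSeq (GRCh38.p14, 250 bases before to 50 after each start, 27305 genes), the heat shock element core GAANNTTC was found in 4 of the 7 promoters, those of HSPA8, HSP90AA1, HSP90AB1 and HSPD1. It reads the same on both strands and occurred in 8.21% of all promoters. The ER stress response element CCAAT followed after 9 bases by CCACG, searched on both strands, was found in the promoters of HSPA5 and HSP90B1 and in 0.0916% of all, or 25 genes. These letter matches divide the cytosolic from the ER members and say nothing of binding in these cells.

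C>T was then pooled over each message, as T among C and T reads at reference cytosines covered in both fractions. It rose after NaCNBH3 in HSPA8 from a median of 0.0409% (0.0141% to 0.0602%) to 0.0863% (0.0646% to 0.122%), higher in 16 of 16 RNA samples. In HSP90AB1 it rose from 0.0465% (0.0301% to 0.0615%) to 0.0983% (0.0628% to 0.137%), again in 16 of 16. HSPD1 went from 0.0361% (0% to 0.0564%) to 0.0952% (0.0386% to 0.2004%), in 14 of 14 samples with cytosines covered in both fractions. The 2 ranges of each pair did not overlap for HSPA8 and HSP90AB1, and overlapped for HSPD1.

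For the less covered messages the medians went from 0.0427% to 0.0807% in HSP90AA1 (12 of 14 higher), from 0.0369% to 0.0965% in HSPA5 (13 of 15), from 0.0539% to 0.0983% in HSP90B1 (6 of 10) and from 0.0619% to 0.101% in HSPE1 (8 of 15). ACTB went from 0.0411% to 0.0919% and the other genes with 50% coverage, pooled, from 0.0507% to 0.101%, both in 16 of 16. After NaCNBH3 the medians of the 7 messages, 0.0807% to 0.101%, lay at or below that of the other genes. By limma the log2 odds of T over C rose by 1.17 in HSPA8 (SE 0.14, adjusted p = 2.33e-07), 1.0997 in HSP90AB1 (SE 0.12, adjusted p = 1.00e-07) and 1.42 in HSPD1 (SE 0.24, adjusted p = 2.28e-05), so that 3 of 4 members were called. HSPE1, at 0.51 (SE 0.25, adjusted p = 0.0606), was not, and 97.7% of 220 genes were called upward, with a median of 1.08 over all. With genes down to 10% coverage, HSP90AA1 (0.88, SE 0.19, adjusted p = 0.000918) and HSPA5 (1.11, SE 0.26, adjusted p = 0.00122) passed limma as well, and HSP90B1 (0.40, SE 0.32, adjusted p = 0.262) did not.

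**Figure D4:**
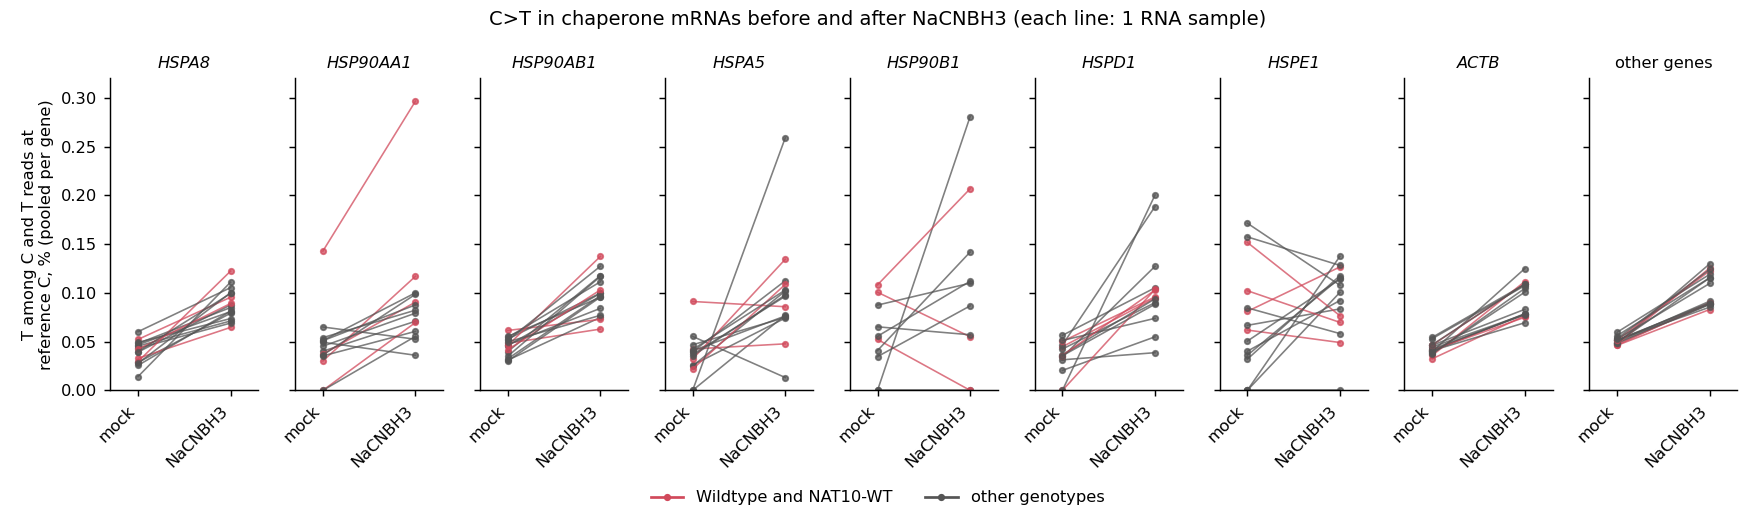
C>T share (y axis, percent of C and T reads at reference cytosines, pooled per gene) in the mock and NaCNBH3 fractions (x axis) of each RNA sample, joined by a line, for the 7 chaperone mRNAs, ACTB and the other genes with at least 50% coverage; red lines are Wildtype and NAT10-WT. The rise occurs in all 16 samples for HSPA8, HSP90AB1 and ACTB, and the red lines lie among the others.

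The rise was then compared between Wildtype and NAT10-WT, which have active NAT10, and the other 6 genotypes. All cells had dTAGV1 for 24 h, and for its ac4C blot the paper treated longer, to let ac4C turn over. Whether ac4C made before NAT10 was degraded remained in the other 6 genotypes was not tested. None of the 4 members was called by limma, as against 1 gene of 220 (0.455%), and 0 of the 4 and 17 of the 220 had an unadjusted p under 0.05. HSPA8 differed by 0.05 (log2 odds, SE 0.32, adjusted p = 0.982), HSP90AB1 by -0.32 (SE 0.27, adjusted p = 0.792), HSPD1 by 0.50 (SE 0.53, adjusted p = 0.877) and HSPE1 by -1.0985 (SE 0.53, adjusted p = 0.592). HSP90AA1 differed by 0.62 (SE 0.40, adjusted p = 0.789, limma over genes down to 10% coverage). Its share was 0.143% in mock and 0.297% after NaCNBH3 in Wildtype replicate 2, the highest of all samples for the gene, but these are 1 T of 700 and 2 T of 674 reads.

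At the CCG cytosines, summed over all those of a gene, HSP90AA1 read T in 1 of 824 reads after NaCNBH3 in Wildtype and NAT10-WT (0.121%, 95% exact interval 0.00307% to 0.674%) and in 0 of 770 in mock. In the other genotypes it read T in 15 of 14159 reads after NaCNBH3 (0.106%, 0.0593% to 0.175%) and in 10 of 13076 in mock (0.0765%, 0.0367% to 0.141%). All 9 CCG cytosines of the message were covered in at least 1 library, 7 of them in a NaCNBH3 library of Wildtype or NAT10-WT. The intervals overlap, and a share above 0.674% over these cytosines together lies outside the interval for active NAT10. HSPA8 gave 5 of 2224 reads (0.225%, 0.0730% to 0.524%) after NaCNBH3 with active NAT10 and 0 of 2106 in mock. In the other genotypes it gave 12 of 10704 (0.112%) after NaCNBH3 and 3 of 10162 (0.0295%) in mock. HSP90AB1 gave 8 of 4184 (0.191%) against 7 of 4062 in mock with active NAT10 (0.172%), and 24 of 16955 (0.142%) against 3 of 15872 (0.0189%) in the others. The intervals cover counting error only.

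At the sites whose sequences are printed above, T was read after NaCNBH3 with active NAT10 in 1 of 320 reads in HSPA8, 1 of 237 in HSP90AA1 and 2 of 1135 in HSP90AB1. No T was read in 392 reads of HSPA5, 296 of HSPD1 and 292 of HSPE1, which allows shares of up to 0.937%, 1.24% and 1.26% (95% exact upper limits). The HSP90B1 site had no covered library in this group. In the genotypes without active NAT10 the counts after NaCNBH3 were 1 of 1539, 3 of 2352 and 3 of 3033 for the first 3, and 0 of 903, 0 of 1667 and 4 of 1699 for HSPA5, HSPD1 and HSPE1. With active NAT10 the 95% exact upper limits after NaCNBH3 were 1.73% in HSPA8, 2.33% in HSP90AA1 and 0.635% in HSP90AB1. Shares above these lie outside the intervals.

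Position by position, almost nothing in these messages reached the threshold for a test, 30 reads in both fractions with 5 mismatch reads and a mismatch share above 1% in one of them. In FKBP and K290A 2 C>T positions each were tested in both replicates, and in the other 6 genotypes 0. Fisher's exact test called 0 of them, beside 23 of 588 C>T positions of all genes in FKBP (3.91%) and 19 of 547 in K290A (3.47%). They were the same 2 sites in both genotypes, and T already made up most of their reads in mock. Such sites could rise little, so that the 0 calls do not speak to ac4C in these messages. At position 197498705 of chromosome 2, in HSPD1, T made up 88.8% to 94.96% of reads, and at position 102084466 of chromosome 14, in HSP90AA1, 99.4% to 100%, in mock and NaCNBH3 alike. Exact Fisher tests there gave adjusted p from 0.285 to 1.

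Read errors of all 12 kinds were compared in the same way over the 7 messages together. C>T rose from a median of 0.0414% to 0.0938%, a ratio of medians of 2.26, in 16 of 16 RNA samples, and in the other genes the ratio was 1.99. A>G rose 1.36-fold, in 14 of 16 samples. The other kinds besides A>T had ratios from 0.789 to 1.34. In the plot of the mismatch spectrum, C>T and A>T are the changes whose NaCNBH3 range lies wholly above the mock range.

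**Figure D5:**
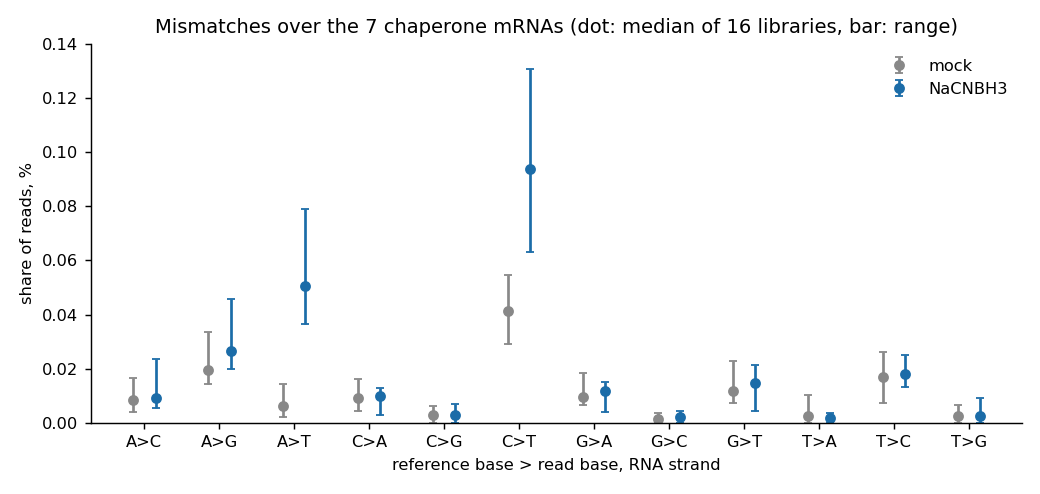
Share of reads with each of the 12 base changes (x axis) in mock and NaCNBH3 fractions (y axis, percent of reads at the reference base; dots are medians of 16 libraries and bars their range) over the 7 chaperone mRNAs. C>T and A>T rise after NaCNBH3, and the remaining changes lie close to their mock values.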

How the data were processed

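Libraries were made by the authors from Hep3B total RNA partly depleted of ribosomal RNA, split into a mock and a NaCNBH3 fraction. Reads were trimmed, deduplicated by molecular identifier and aligned to GRCh38; tools listed in the notes of the submitters were STAR 2.7.9a for alignment, SAMtools 1.6, cutadapt 4.2 for trimming and UMI-tools 1.1.5. The deposited values are raw counts of A, T, C and G per position and strand, listed only at positions with at least 30 reads, so that a gene near this depth loses positions and its level is known only between bounds. No normalization was applied by the authors.

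Members and gene lists were chosen with earlier results of these data known. Exons came from the MANE Select transcript of each gene or, where it had none, the Ensembl canonical transcript. Depth per exonic position (absent positions as 0) was averaged over both fractions, taken as log2(depth + 1) minus that of ACTB, and fitted with limma 3.58.1 (R 4.3.3; empirical Bayes with trend, 1 coefficient per genotype, Benjamini-Hochberg) over 219 genes with at least 50% of positions covered on average. HSP90AA1, HSPA5 and HSP90B1 fell below that share and were tested among 981 genes with at least 10%. The added 1 shrinks fold changes of low genes, whereas counting absent positions as 0 can enlarge them, so these values are not conservative. C>T per gene was tested by limma on the difference between fractions of log2((T + 0.5)/(C + 0.5)), leaving out positions with over 20% C>T in mock. Single positions were tested with Fisher's exact test per replicate. Adjusted p under 0.05 was called, for positions in both replicates. The depth, C>T and position tests were checked on simulated data with known changes.

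The labels give the replicate number as a batch, without saying what a batch shared. Over 28 pairs of genotypes the replicate differences correlated between -0.556 and 0.787 (median 0.0868, above 0.1 in 14). The number was left out of the fits, and the fit with it as a block is given beside a result where it changed the call. No library repeated the other replicate of its genotype and fraction (at most 2.95% of positions had identical depth in both). Other pairs of libraries were not compared. Alternatives changed the treatment of absent positions, the reference, the pseudocount, the filter, the fractions, the exons, the test (edgeR 4.0.16 on summed base counts, with TMM or with DESeq2 size factors) and the samples. Genes of like GC content as the reference, and 10% coverage with absent positions at 29 reads, were added after the data were seen. Besides the members and ACTB, named genes were other folding genes past the threshold (up to 4 per comparison) and the 3 genes most alike to HSPA8 and to HSPA5, and named positions the most-read CCG cytosine of each member. Positions and copies beyond that rule were named after their values were seen.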

Additional observations from a re-analysis of the deposited data

Results flagged for a closer look

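One signal outside the C>T measurement stood above the mock level, the share of T at reference A. Over the 7 chaperone messages A>T had a median of 0.00614% in mock (0.00202% to 0.0144%) and of 0.0504% after NaCNBH3 (0.0364% to 0.0791%), higher in 16 of 16 RNA samples, and the ranges did not overlap. The ratio of medians, 8.21, exceeded that of C>T, 2.26. In the other genes with at least 50% coverage A>T went from 0.00660% to 0.0549%, a ratio of 8.33, also in 16 of 16. The rise occurred in every genotype, and its cause was not tested.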

How the results depend on the processing

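No result of the 7 genes changed direction past a threshold: of 912 values of the genotype comparisons 900 kept their side of it and 12 moved past it, as did 30 of 30 for depth between fractions, 30 of 32 for the C>T rise and 30 of 30 for its difference by NAT10 activity. HSPD1 lost its C>T call at 100 reads (0.41, adjusted p = 0.355) and at CCG cytosines only (0.66, adjusted p = 0.0830); limma made both. Members called rose from 0 to 1 in Wildtype (NaCNBH3 libraries only), and for helicase against GNAT mutants to 2 relative to the median gene, 2 and 2 with the edgeR fits and 1 with the replicate block (which changed no other call of the 7 genes), and from 3 to 5 for C>T with the 10% filter.

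Calls over all genes moved more. In Wildtype 22 became 12 (positions in all 32 libraries), 7 (median gene), 36 (NaCNBH3 only), 53 (replicate block), 7 (like GC), and 9 and 9 (edgeR). In FKBP 12 became 21 (29 reads), 19 (positions in all libraries), 8 (median gene), 23 (union of exons), 21 (replicate block), 19 (10% filter with 29 reads), and 6 and 6 (edgeR). In K290A 68 became 105 (positions in all libraries) and 151 (10% filter), in G641E 0 became 2, 2 and 2 (29 reads, positions in all libraries, 10% filter with 29 reads), and 36 became 98 for helicase against GNAT (10% filter) and 43 with the replicate block. For C>T 215 became 69 (CCG only) and 667 (10% filter), and the 1 gene differing by NAT10 activity became 0 in 4 alternatives. At a 0.1% mismatch share, 351 C>T positions were called in FKBP and 125 in K290A.

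Leaving out 1 RNA sample gave 5 to 73 genes in Wildtype, 2 to 59 in FKBP, 46 to 102 in K290A, 0 to 8 in G641E, 0 to 1 in NAT10(-) and E389L, 0 in H537A and 0 to 86 for helicase against GNAT, with 0 to 1 members called in NAT10(-), K290A and G641E and 0 elsewhere. With 1 replicate number only, C>T gave 198 to 205 genes, 3 members, and 0 to 1 gene by NAT10 activity, depth between fractions 0, and positions 49 to 64 in FKBP and 48 to 110 in K290A. Depth limits HSP90AA1, HSPA5, HSP90B1, HSPD1 and HSPE1 most, since their bounds are wide in shallow libraries.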

Other observations

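Several member positions differed from GRCh38 in mock and NaCNBH3 alike, and were named after their values were seen. At position 44250383 of chromosome 6, in HSP90AB1, G was read in place of the reference A in 99.4% to 100% of reads in all 32 libraries. At position 103947325 of chromosome 12, in HSP90B1, T was read in place of C in 100% of reads in the 7 libraries that covered it. The HSPD1 position 197498705 of chromosome 2 read T in 64.1% to 100% of reads (median 93.7%) over 22 libraries, and the HSP90AA1 position 102084466 of chromosome 14 in 99.4% to 100% over 12.

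HSPD1 held 1 further position whose share was higher in Wildtype than in FKBP and K290A. These are the genotypes where it was tested in both replicates, and shares in the others, NAT10-WT among them, are not given. At position 197497294 of chromosome 2, G was read in place of A in 20.5% to 27.6% of reads in the 4 Wildtype libraries, 4.35% to 12.7% in the 4 FKBP libraries and 6.04% to 7.41% in the 4 K290A libraries. The Wildtype libraries, with 39 to 67 reads each, lay above all 8 FKBP and K290A libraries. Fisher's exact test called no difference there between mock and NaCNBH3 (adjusted p = 0.675 or more). The difference between genotypes was not tested. Of 18 processed copies of HSPD1, 5 aligned to the 31 bases around this position with at most 3 mismatches, and all 5 carried the reference base. For the HSP90AB1 position 3 of 6 copies aligned and all 3 carried the other base.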
